A study of Mus musculus with 20 samples.

Results

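Coagulation and fibrinolysis factors were 32 genes taken by name: the fibrinogen chains, the clotting proteases and their cofactors, the circulating and endothelial anticoagulants, and the plasminogen system. Of these, 31 had a probe set assigned to that gene alone on the array, out of 18193 genes so measured. Each gene was read from its brightest such probe set, and Cpb2, the carboxypeptidase that slows fibrinolysis, was not analysed here. Hepatic transcripts were compared in male C57BL/6J mice (the strain label reads C56BL/6J) that were 7 weeks old at the start and were fed for 12 weeks. The NC group received normal CRF-1 chow. The CL group received a diet with 0.5% sodium cholate, a bile salt, and 1.25% cholesterol, in which fat gave 60% of the calories. The CL + AX and CL + VE groups received that CL diet with 0.02% astaxanthin, a carotenoid, or 0.02% vitamin E, so that both supplemented groups also carried the fat, cholesterol and cholate. There were 5 mice per group, 1 array per mouse and no NC group given a supplement, and livers were taken after 2 h without food. Fat, cholesterol and cholate were given together and cannot be told apart.

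Most clotting proteins of plasma are made by hepatocytes. Tissue factor and factor VII start the cascade, which ends when thrombin turns fibrinogen into fibrin, and factor XIII then crosslinks the fibres. Antithrombin, the protein C pathway and tissue factor pathway inhibitor restrain it. Plasmin, made from plasminogen by tissue-type or urokinase-type activator, dissolves the clot. Other members are known from endothelial cells (Vwf, Thbd, Tfpi, Plat) or from macrophages and other stromal cells (F13a1, F3, Plau, Plaur).

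Levels are given as log2 of the array signal after quantile normalization, which gives all arrays the same distribution of signals. Differences are log2 fold changes with their SE, and a gene was called where the adjusted p of limma, over all probe sets, was under 0.05. Brightness depends on the probe set as well as on the RNA, so it was not compared between genes. Of the 31 members, 20 had a mean log2 signal of at least 10 and 9 were below 7, beside a median of 5.63 over all genes. The bright members were measured closely, with a median SD between mice of a group of 0.0845 to 0.1. The 9 dim ones (F13a1, F3, F8, Vwf, Thbd, Tfpi, Plat, Plau and Plaur) had a median SD of 0.325 to 0.493. All 6 measured hepatocyte markers (Alb, Apoa1, Ttr, Apoa2, Ahsg and Apoc3) were bright in every group. Their summed log2 signal was 16.05 to 16.15 in NC and 16.07 to 16.17 in CL.

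The arrays differed between groups in ways that touch these comparisons. Median signals as deposited were 13.1 to 18.9 in NC, 19.4 to 24.9 in CL, 26.4 to 27.8 in CL + AX and 17.1 to 20.8 in CL + VE. The log2 ratio of the 3′ to the 5′ Gapdh control probe set, a sign of RNA and labelling quality, was 0.38 to 0.78 in NC and -0.26 to -0.09 in CL. That of Actb was 1.54 to 1.95 in NC and 1.01 to 1.25 in CL, and that of Dap, an added control RNA, 2.97 to 3.39 in NC, 1.12 to 1.45 in CL, 1.05 to 1.31 in CL + AX and 0.99 to 2.26 in CL + VE, so that all 5 NC mice lay above all others. The part of this difference in the results against NC was not tested. Other cell types also moved with the diet. The macrophage markers called higher in CL than in NC were 9 of 10 (summed log2 signal 10.69 to 12.33 in NC and 12.93 to 14.17 in CL), and only Itgam was below the median gene. The endothelial markers called higher were 7 of 9 (9.94 to 10.93 against 11.09 to 11.48), with Pecam1 and Emcn below the median gene. The stellate cell markers called higher were 5 of 7 (10.38 to 11.08 against 11.42 to 12.36), with Des and Col1a1 below it. Of 7 megakaryocyte and platelet markers 0 were called, and Ppbp, Gp1bb, Gp9, Gp5 and Treml1 were below the median gene. Of the 4 bile duct markers 1 was called higher. In whole liver, more cells of a type and more RNA per cell cannot be told apart.

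The first comparison asked which members moved with the CL diet. In CL against NC, 10 of 31 members were higher and 1 was lower, against backgrounds of 12% and 11.3% of all genes. Of the 20 bright members 5 were higher and 1 lower, beside 21.1% and 19.6% of the genes with a mean log2 signal of at least 10. The median log2 fold change of the members was 0.19, beside -0.04 over all genes. The 5 members called higher under all 5 ways of scaling the arrays (quantile normalization, no scaling, centring on the median, scaling to the trimmed mean, and expression relative to the hepatocyte markers) were Plau, Plat, F13a1, F3 and Tfpi. No member was called lower under all 5. For 7 members the CL mice all lay above the NC mice, a pattern seen in 8.07% of all genes.

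Plau, the gene for urokinase-type plasminogen activator, had log2 signals of 0.53, 3.13, 3.34, 3.91 and 0.30 in the NC mice and 4.30, 5.30, 4.45, 5.10 and 4.54 in the CL mice. All 5 CL mice were above all 5 NC mice, and 2 NC mice were near the bottom of the scale. The log2 fold change was 2.50 (SE 0.532, 5.66-fold, adjusted p = 0.00181) in limma. With signals under 16 raised to 16 it was 0.74 (SE 0.21), still called, so its size rests on signals near background. Plat, which codes for tissue-type plasminogen activator, had 3.72, 3.23, 3.32, 3.85 and 4.44 in NC and 5.53, 6.13, 4.53, 5.33 and 5.13 in CL. These groups did not overlap either, with a log2 difference of 1.61 (SE 0.416, 3.06-fold, adjusted p = 0.00841) in limma. A second, dimmer probe set of each activator did not rise (-0.37, SE 0.61, for Plau and -0.35, SE 0.87, for Plat), and both calls were lost when probe sets of a gene were averaged (1.07, adjusted p = 0.0994, and 0.63, adjusted p = 0.477, in limma).

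F13a1 codes for the catalytic A subunit of factor XIII, which is known from macrophages and megakaryocytes rather than hepatocytes. Its log2 signals were 3.33, 3.69, 2.90, 4.58 and 4.06 in NC and 4.36, 5.64, 4.56, 5.54 and 4.53 in CL. The groups overlapped, with 1 NC mouse above 3 CL mice, and the log2 fold change was 1.21 (SE 0.335, 2.32-fold, adjusted p = 0.0136) in limma. F3, the gene for tissue factor, had 3.79, 5.77, 4.16, 4.88 and 5.40 in NC and 5.51, 5.79, 5.81, 5.89 and 6.18 in CL. Its NC mice were spread from 3.79 to 5.77, and the highest of them reached the CL range. The log2 fold change of F3 was 1.04 (SE 0.298, 2.05-fold, adjusted p = 0.0174) in limma. Without NC replicate 1 it was 0.78 (adjusted p = 0.0564) and without NC replicate 3 it was 0.87 (adjusted p = 0.0566) in limma, so either mouse decides the call. The methods' t-test did not call Plau (adjusted p = 0.152), F13a1 (adjusted p = 0.111), F3 (adjusted p = 0.204), F13b (adjusted p = 0.0689) or Serpina10 (adjusted p = 0.167). With signals under 16 raised to 16, the calls of F13a1 (0.80, adjusted p = 0.0779) and Plat (1.24, adjusted p = 0.0646) were lost in limma.

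Tfpi, the gene for tissue factor pathway inhibitor, rose with a smaller spread. Its log2 signals were 5.48, 5.76, 5.85, 5.89 and 5.56 in NC and 6.17, 6.42, 6.40, 6.36 and 6.31 in CL, with no overlap. The log2 fold change was 0.62 (SE 0.141, 1.54-fold, adjusted p = 0.00304) in limma. All 4 probe sets of Tfpi were called higher, by 0.62 to 1.30. It kept its call under all 11 alternatives and in all 20 fits that each left out 1 mouse. The macrophage, endothelial and stellate markers moved with Plau, Plat, F13a1, F3 and Tfpi, and their part in these results was not tested.

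**Figure D1:**
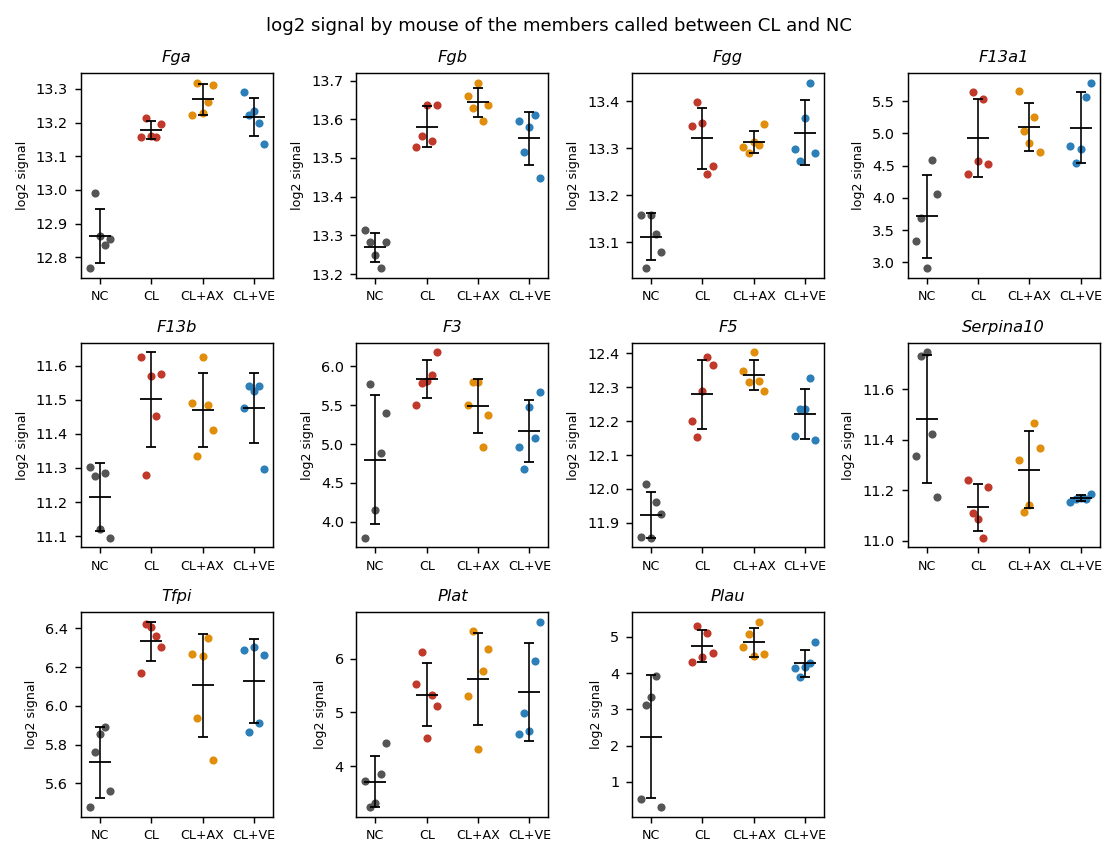
Log2 signal after quantile normalization (vertical axis, its own range in each panel) of the 11 members called between CL and NC, with 1 point per mouse, a bar at the mean and whiskers of 1 SD (n = 5 per group). The CL mice lie above the NC mice without overlap for Fga, Fgb, Fgg, F5, Tfpi, Plat and Plau. The log2 fold changes of Fga, Fgb, Fgg and F5 turn below 0 when arrays are centred on their medians, where only Fgg of these is called lower.

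The fibrinogen genes Fga, Fgb and Fgg code for the 3 chains of fibrinogen, and lie next to each other on chromosome 3 in the order Fgg, Fga, Fgb. The 150 bases before each start are shown from the RefSeq promoters of GRCm38.p6, because the 3 genes moved together, beside F5 (higher) and F2 (not called). Motifs found on either strand are in capitals. The HNF1 motif was searched as GTTAAT, for a factor of hepatocytes. For C/EBP, a family active in liver and in the acute phase, the letters were TTGCNNAA. The element of the IL-6 type bound by STAT3 was searched as CTGGGAA. For AP-1, shown further on for F3, the letters were TGANTCA. The search also covered the TATA box, with the letters TATAAA. Fga lies at chr3:83026003-83026152 (plus strand), Fgb at chr3:83049864-83050013 (minus strand), Fgg at chr3:83007574-83007723 (plus strand), F5 at chr1:164151685-164151834 (plus strand) and F2 at chr2:91636458-91636607 (minus strand).
Fga: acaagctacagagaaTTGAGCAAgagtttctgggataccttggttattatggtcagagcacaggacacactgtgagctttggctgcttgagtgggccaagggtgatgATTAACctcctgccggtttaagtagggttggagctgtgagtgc
Fgb: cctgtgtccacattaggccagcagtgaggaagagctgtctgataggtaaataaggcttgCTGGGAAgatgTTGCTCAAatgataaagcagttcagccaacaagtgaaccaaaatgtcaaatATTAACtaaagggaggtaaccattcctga
Fgg: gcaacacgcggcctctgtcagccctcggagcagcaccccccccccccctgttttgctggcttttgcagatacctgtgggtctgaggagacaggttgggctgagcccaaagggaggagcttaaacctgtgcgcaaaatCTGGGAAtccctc
F5: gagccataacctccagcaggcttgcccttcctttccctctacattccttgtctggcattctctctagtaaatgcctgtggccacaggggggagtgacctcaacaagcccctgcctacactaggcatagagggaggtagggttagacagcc
F2: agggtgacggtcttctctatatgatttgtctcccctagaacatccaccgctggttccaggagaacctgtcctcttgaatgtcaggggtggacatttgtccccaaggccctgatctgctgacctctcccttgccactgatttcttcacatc
The Fga and Fgb windows each held an HNF1 motif and a C/EBP match, and the Fgb and Fgg windows a STAT3-type match. In the F5 and F2 windows no match to these letters was found. Over the windows of 24 members with an entry (26 promoters), the HNF1 motif was in 3, C/EBP in 6 and the STAT3-type element in 4. Of 32851 mouse promoters of this length, 3.71%, 5.46% and 5.5% held them. A match of letters is a description and shows no binding.

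The log2 signals of Fga were 12.77, 12.99, 12.86, 12.84 and 12.85 in NC and 13.16, 13.21, 13.16, 13.16 and 13.20 in CL. Those of Fgb were 13.31, 13.28, 13.25, 13.21 and 13.28 in NC and 13.53, 13.56, 13.64, 13.54 and 13.64 in CL. Those of Fgg were 13.16, 13.04, 13.16, 13.12 and 13.08 in NC and 13.35, 13.40, 13.35, 13.25 and 13.26 in CL. For each chain all CL mice were above all NC mice. The log2 fold change was 0.31 (SE 0.051, 1.24-fold, adjusted p = 0.000132) in limma for Fga and 0.31 (SE 0.0494, adjusted p = 0.000107) for Fgb, but it turned to -0.17 and -0.18 with arrays centred on the median and to -0.03 and -0.04 with trimmed-mean scaling. For Fgg it was 0.21 (SE 0.0506, adjusted p = 0.0052), and it turned to -0.27 and -0.13 under those scalings, while without scaling it was not called (0.23, adjusted p = 0.0889 in limma). Of these values below 0, only the -0.27 of Fgg was called (adjusted p = 0.0416 in limma).

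A comparison within each array does not depend on such a scaling. Chosen after the values were seen, it set the mean log2 signal of the 3 chains, as deposited, against that of the 4 other members with a mean of at least 13 (F2, Kng1, Serpinc1 and Plg) on the same array. The difference was -0.14, -0.13, -0.13, -0.18 and -0.11 in the NC mice and 0.18, 0.21, 0.18, 0.13 and 0.13 in the CL mice. Its zero has no meaning, since probe sets differ in brightness, but the groups did not overlap, and the means were 0.30 apart. It was 0.14, 0.23, 0.14, 0.17 and 0.18 in CL + AX and 0.16, 0.12, 0.19, 0.20 and 0.12 in CL + VE, so that all 15 mice on a CL diet lay above all 5 NC mice. The chains were already known to be called higher and the 4 others not, so the gap largely restates those values. Such a difference does not remove the 3′ to 5′ labelling difference, where the Dap ratio set the same 5 NC mice apart. Its part was not tested, and the share of other gene sets separating the groups was not counted. Relative to the hepatocyte markers of the same array, Fga, Fgb and Fgg were higher in CL than in NC by 0.33 (SE 0.0961), 0.32 (SE 0.0851) and 0.23 (SE 0.0821), with limma adjusted p-values of 0.0132, 0.00719 and 0.0468. On that scale thrombin's precursor F2 (-0.02), antithrombin Serpinc1 (-0.02) and plasminogen Plg (0.06) stayed near 0. The median was 0.39 over all genes and 0.17 over the bright ones. The chains thus rose less than the median of all genes and more than that of the bright ones.

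**Figure D2:**
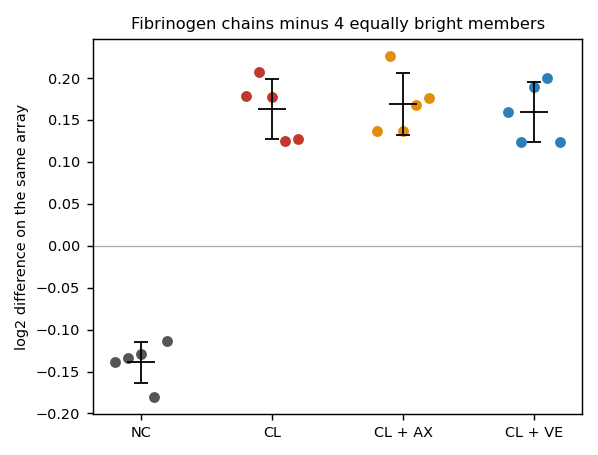
Mean log2 signal as deposited of Fga, Fgb and Fgg minus that of F2, Kng1, Serpinc1 and Plg on the same array (vertical axis), by group, with 1 point per mouse, a bar at the mean and whiskers of 1 SD (n = 5 per group). The NC mice lie between -0.18 and -0.11 and the 15 mice on CL diets between 0.12 and 0.23. The genes were chosen after their values were seen.

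F13b, the gene for the carrier B subunit of factor XIII, is made in hepatocytes. Its log2 signals were 11.30, 11.28, 11.12, 11.28 and 11.09 in NC and 11.63, 11.28, 11.57, 11.45 and 11.58 in CL, and 1 CL mouse lay within the NC range. Its log2 difference of 0.29 (SE 0.0738, adjusted p = 0.00859) became 0.11 with trimmed-mean scaling and -0.03 with centring on the median. With it, all 5 genes of the fibrinogen and crosslinking step were called higher under quantile normalization, beside 12% of all genes. Under median centring and under trimmed-mean scaling, F13a1 alone of them was called higher.

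F5, which codes for the cofactor of factor Xa, moved in the same direction as the fibrinogen chains under each of these scalings but the trimmed mean. Its log2 signals were 11.86, 12.01, 11.86, 11.96 and 11.93 in NC and 12.20, 12.15, 12.29, 12.39 and 12.37 in CL, without overlap. The log2 fold change was 0.36 (SE 0.0574, adjusted p = 0.000125), with 0.10 under trimmed-mean scaling and -0.04 with centring on the median. Relative to the hepatocyte markers it was 0.46 (SE 0.117, adjusted p = 0.00553 in limma).

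The other proteases of the initiating and common steps were not called. F7 had 9.83 to 10.39 in NC and 9.56 to 10.15 in CL, a log2 difference of -0.30 (SE 0.127, adjusted p = 0.115) that was 0.01 without scaling. F2 was at 13.06 to 13.15 in NC and 13.03 to 13.13 in CL. The brightest probe set of F10, the gene for factor X, gave 0.03 (SE 0.0744), but its 2 dimmer probe sets fell by 0.48 (adjusted p = 0.00358 in limma) and 0.59 (adjusted p = 0.000128 in limma). Neither of these was called without scaling (-0.06 and -0.20), so the probe sets of F10 disagree. The F3 window, shown because it held 2 AP-1 matches, lies at chr3:121723387-121723536 (plus strand); 2 of the 26 member promoters and 4.24% of all promoters held that motif.
F3: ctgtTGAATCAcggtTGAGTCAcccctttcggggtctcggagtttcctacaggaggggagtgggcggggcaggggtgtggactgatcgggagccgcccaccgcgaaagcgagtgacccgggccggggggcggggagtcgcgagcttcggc
The matches begin at bases -146 and -135, counted from the start. The other window with an AP-1 match was that of Plaur, the receptor of urokinase.

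**Figure D3:**
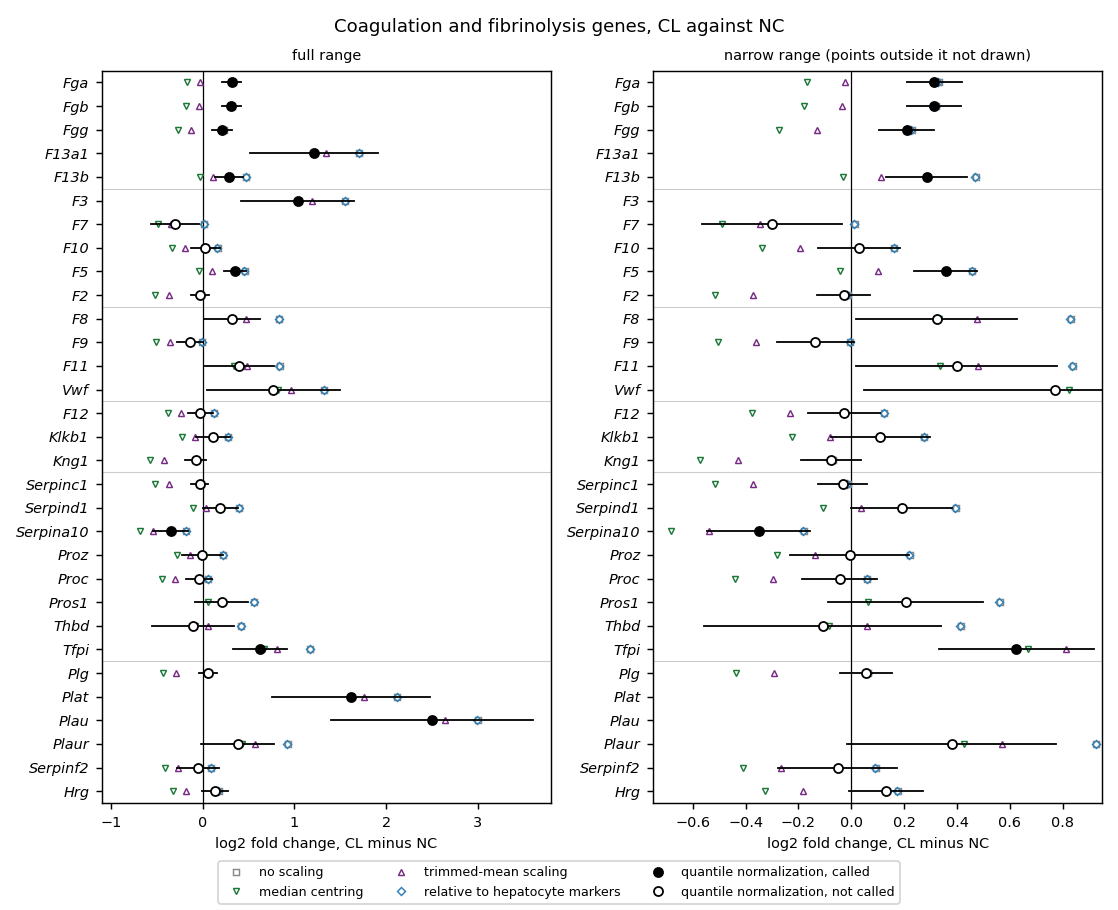
Log2 fold change of CL minus NC (horizontal axis) for the 31 measured members in order of role, over the full range and over a narrow one. Circles are the quantile-normalized values with 95% confidence intervals of limma, filled where called, and small symbols are the same members under 4 other scalings. Plau, Plat, F13a1, F3 and Tfpi stay above 0 under all of them, while Fga, Fgb, Fgg, F5 and F13b fall below 0 with arrays centred on their medians.

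The amplification factors and von Willebrand factor were not called in CL against NC. Vwf, the platelet adhesion protein of endothelium, had 5.05, 3.60, 5.07, 5.59 and 5.08 in NC and 5.43, 5.64, 5.36, 6.19 and 5.63 in CL. The groups overlapped and NC replicate 2 stood below the rest. The log2 fold changes were 0.77 (SE 0.348, adjusted p = 0.142) for Vwf, 0.32 (SE 0.146, adjusted p = 0.144) for F8, the cofactor lacking in haemophilia A, and 0.40 (SE 0.183, adjusted p = 0.149) for F11. The 3 were above 0 under all 5 scalings and were called without scaling (1.32, 0.83 and 0.84, with adjusted p-values of 0.00666, 0.000449 and 0.00382 in limma) and relative to the hepatocyte markers (1.32, 0.83 and 0.84). Those settings, which gave nearly the same values, called 28.2% and 29.6% of all genes higher. Under each of them the median over all genes was 0.39. F8 was also called with trimmed-mean scaling (0.47, adjusted p = 0.0274 in limma). F9, the protease lacking in haemophilia B, gave -0.14 (SE 0.0698, adjusted p = 0.205). Of the contact system, F12 (-0.03), Klkb1 (0.11) and Kng1 (-0.08) were not called, and the probe set of Kng1 may also detect its near-identical copy Kng2.

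Of the 8 anticoagulants, Tfpi rose and Serpina10 fell. Serpina10 codes for the inhibitor of factor Xa that acts with protein Z. Its log2 signals were 11.33, 11.73, 11.75, 11.42 and 11.17 in NC and 11.24, 11.11, 11.09, 11.01 and 11.21 in CL. The groups overlapped through the lowest NC mouse. The log2 fold change was -0.35 (SE 0.0931, 1.27-fold, adjusted p = 0.0103) in limma. It was below 0 under all 5 scalings, but was not called without scaling (-0.18) or relative to the hepatocyte markers (-0.18). Proz, its partner, gave -0.01 (SE 0.108), while a dimmer probe set of Proz gave 0.57 (adjusted p = 0.00888 in limma). Serpinc1 (-0.03), Serpind1 (0.19), Proc (-0.04), Pros1 (0.21) and Thbd (-0.11) were not called.

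The remaining plasminogen genes were not called. Plg, the zymogen itself, was at 13.25 to 13.38 in NC and 13.33 to 13.38 in CL, a log2 difference of 0.05 (SE 0.0473). Plaur gave 0.38 (SE 0.191, adjusted p = 0.194), Serpinf2, the plasmin inhibitor, gave -0.05, and Hrg, a plasminogen-binding glycoprotein, gave 0.13. The 7 members that need vitamin K for their carboxylation (F2, F7, F9, F10, Proc, Pros1 and Proz) included 0 called in CL against NC by limma, 0 by the methods' t-test after adjustment, and 1, F7, at an unadjusted p under 0.05. Their median was -0.03, with a range of -0.30 to 0.21. Of these 7, median centring called 5 lower (F2 -0.52, F7 -0.49, F9 -0.50, F10 -0.34 and Proc -0.44), beside 15.2% of all genes, and trimmed-mean scaling 3 (F2, F9 and Proc), beside 10.2%. These scalings moved bright genes down in general. The genes with a mean log2 signal of at least 10 had medians of -0.33 and -0.19 under them. Of the 6 measured hepatocyte markers, they called 6 and 4 lower, with medians of -0.52 and -0.37. Without scaling, 1 was called higher (Pros1, 0.56), beside 28.2%. Under median centring the call counts of all 31 members turned to 5 higher and 13 lower, beside 9.37% and 15.2% of all genes. All 13 of the lower ones were among the 20 bright members. Under trimmed-mean scaling they were 7 and 8, beside 15.2% and 10.2%. Without scaling they were 14 and 0, beside 28.2% and 1.17%.

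The second comparison asked whether astaxanthin changed these genes in mice on the CL diet. In CL + AX against CL, 0 of 31 members were called by limma, beside 0% of all genes. At an unadjusted p under 0.05 there was 1 member higher and 0 lower, beside 4.03% and 4.02% of all genes. The members with the smallest p were Kng1 0.15 (SE 0.0547, adjusted p = 0.544), Fga 0.09 (SE 0.051, adjusted p = 0.759), Hrg -0.11 (SE 0.0677, adjusted p = 0.796) and Serpina10 0.15 (SE 0.0931, adjusted p = 0.801), which was -0.05 with centring on the median. The methods' t-test called 0 members in this and in the next 2 comparisons. Fga was 13.22, 13.32, 13.23, 13.26 and 13.31 in CL + AX, so that each of these mice was above each CL mouse, a pattern in 0.956% of all genes, and it was -0.14 with centring on the median. Kng1 was 13.32, 13.16, 13.37, 13.18 and 13.31 in CL + AX and 13.01, 13.12, 13.13, 13.14 and 13.19 in CL, with overlap, and -0.08 with centring on the median. Over the 20 bright members the log2 fold changes ran from -0.11 to 0.15, and their 95% intervals from -0.30 to 0.40. Over the 9 dim members the intervals reached from -1.002 to 1.21, so larger changes of those could not be seen.

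Vitamin E was compared with CL in the same way. In CL + VE against CL, 0 of 31 members were called by limma, beside 0% of all genes, and at an unadjusted p under 0.05 there was 1 higher and 1 lower, beside 4.85% and 2.7% of all genes. F3 had 4.97, 4.67, 5.48, 5.08 and 5.67 in CL + VE, below most CL mice but overlapping them, with a log2 difference of -0.66 (SE 0.298, adjusted p = 0.624). Serpinf2 had 12.08, 11.80, 11.88, 11.94 and 11.44 in CL + VE and 11.71, 11.39, 11.70, 11.52 and 11.63 in CL, with overlap and a log2 difference of 0.24 (SE 0.109, adjusted p = 0.629). The next were F9 0.13 (SE 0.0698, adjusted p = 0.705) and F7 0.19 (SE 0.127, adjusted p = 0.798), and both turned below 0 without scaling. The paper lists F3 and F10 among target genes in its own selection of genes altered by vitamin E. For F10 the brightest probe set gave -0.06 (SE 0.0744) here, and its dimmer ones 0.29 and 0.22, none called. The intervals of the bright members ran from -0.27 to 0.46, and those of the dim ones from -1.58 to 1.03.

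The supplements were also set against each other at their shared dose of 0.02%. In CL + AX against CL + VE, 0 of 31 members were called by limma, beside 0% of all genes, and 0 had an unadjusted p under 0.05. The smallest p-values were those of Kng1 0.11 (SE 0.0547, adjusted p = 0.578), F5 0.11 (SE 0.0574, adjusted p = 0.58), Fgb 0.09 (SE 0.0494, adjusted p = 0.606) and Hrg -0.12 (SE 0.0677, adjusted p = 0.624). Kng1, F5 and Fgb turned below 0 with centring on the median, where 9 members, Fgb and Hrg among them, were called lower in CL + AX, beside 6.11% of all genes. Under that centring the genes with a mean log2 signal of at least 10 had a median of -0.31. Hrg turned above 0 without scaling. The median of all genes itself was moved to -0.17 by median centring and to 0.38 without scaling. Quantile-normalized intervals ran from -0.31 to 0.36 over the bright members and from -1.31 to 1.68 over the dim ones. A p above the threshold does not show that the supplements act alike.

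**Figure D4:**
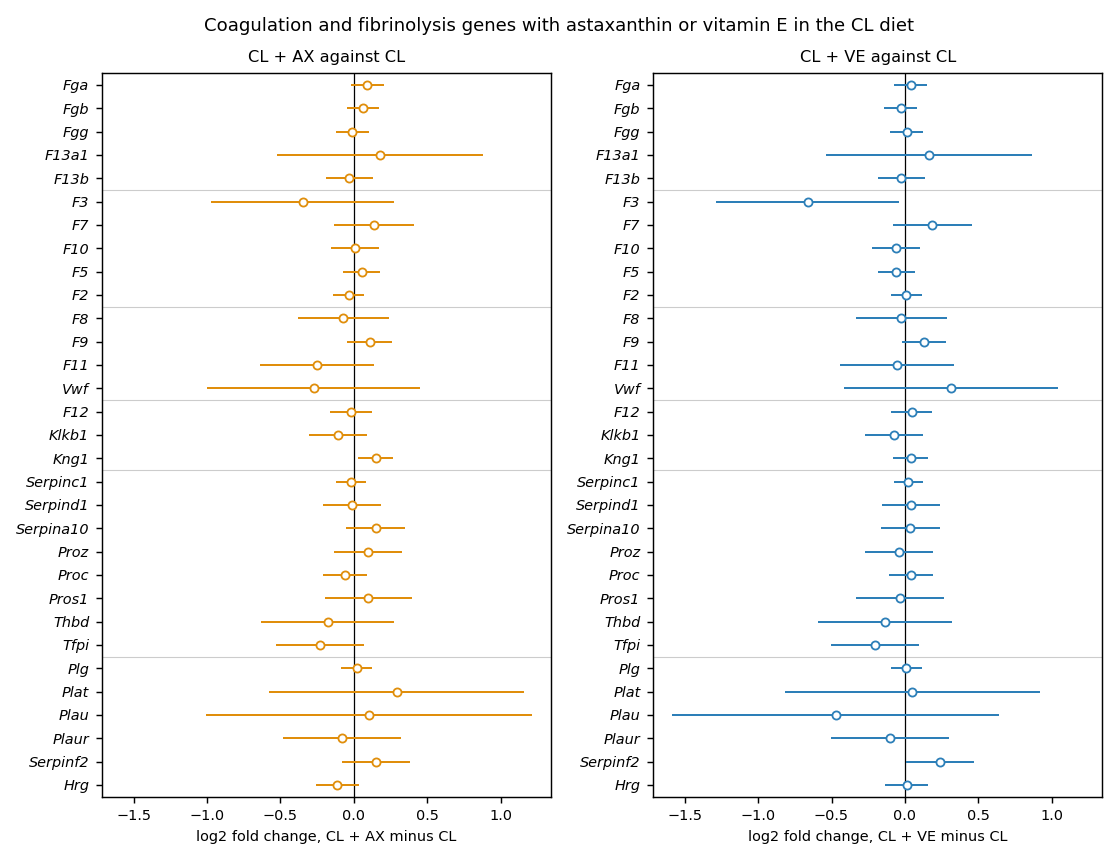
Log2 fold change (horizontal axis) of CL + AX minus CL and of CL + VE minus CL for the 31 measured members in order of role, as points with 95% confidence intervals of limma (n = 5 mice per group, quantile-normalized signals). None is called, the bright members stay within -0.30 and 0.46, and the intervals of dim members such as Plau and Plat are several times wider; the signs of some members, Kng1 and Fga among them, depend on the scaling.

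Both supplemented groups were also compared with NC, and these comparisons share the NC mice with each other and with CL against NC. In CL + AX against NC, 8 of 31 members were higher and 0 lower (background 12% and 11.3%), and the members' median was 0.15, beside -0.02 over all genes. In CL + VE against NC, 9 were higher and 1 lower (background 10.2% and 7.27%), with a median of 0.19 beside 0.00. Fga was higher by 0.41 (SE 0.051, adjusted p = 8.23e-06) in CL + AX and by 0.35 (SE 0.051, adjusted p = 7.49e-05) in CL + VE. Fgb was higher by 0.37 and 0.28, Fgg by 0.20 and 0.22, and F5 by 0.41 and 0.30. Under centring on the median, Fga, Fgb, Fgg and F5 were below 0 in CL + AX, and Fgb and Fgg in CL + VE. In CL + VE the calls of all 4 were lost without scaling (Fga 0.27, adjusted p = 0.143, and F5 0.25, adjusted p = 0.276), with centring on the median (Fga 0.04, adjusted p = 0.824, and F5 0.02, adjusted p = 0.922) and with trimmed-mean scaling (Fga 0.13, adjusted p = 0.301, and F5 0.11, adjusted p = 0.368) in limma. Relative to the hepatocyte markers, Fga (0.35) and Fgb (0.29) were called there, and Fgg (adjusted p = 0.113) and F5 (adjusted p = 0.0635) were not. In CL + AX trimmed-mean scaling also put Fga, Fgb and Fgg below 0 and left F5 at 0.11 (adjusted p = 0.294 in limma), and the call of Fgg was lost without scaling (adjusted p = 0.0573 in limma).

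Plau, Plat, F13a1, F3 and Tfpi stayed above 0 under that scaling in both groups. Plau had 4.46 to 5.42 in CL + AX and 3.90 to 4.87 in CL + VE, higher than NC by 2.60 (SE 0.532, adjusted p = 0.00127) and 2.03 (SE 0.532, adjusted p = 0.013). With signals under 16 raised to 16, the value in CL + VE was 0.29 (adjusted p = 0.488). With probe sets averaged it was 0.56 (adjusted p = 0.465). Plat was higher by 1.91 (adjusted p = 0.00227) and 1.67 (adjusted p = 0.0092), and F13a1 by 1.39 (adjusted p = 0.0051) and 1.38 (adjusted p = 0.00775). With probe sets averaged, Plat gave 0.31 (adjusted p = 0.757) and 0.74 (adjusted p = 0.418), and with signals under 16 raised to 16 its call in CL + VE was lost (1.29, adjusted p = 0.0663). The methods' t-test called neither Plau (adjusted p = 0.136 and 0.262) nor F13a1 (0.055 and 0.0944) nor F13b (0.0517 and 0.0687) in either group, nor Plat in CL + VE (0.117). F13b was higher by 0.25 and 0.26, but was -0.26 in CL + AX with centring on the median. Its calls were lost in CL + AX without NC replicate 3 (0.23, adjusted p = 0.0519) or CL + AX replicate 3 (0.22, adjusted p = 0.057), and in CL + VE without NC replicate 3 (0.24, adjusted p = 0.0567), CL + VE replicate 2 (0.24, adjusted p = 0.0509) or CL + VE replicate 4 (0.24, adjusted p = 0.0517) in limma. Tfpi was at 5.72 to 6.35 and 5.87 to 6.30, overlapping NC, with 0.40 (SE 0.141, adjusted p = 0.0567) and 0.42 (SE 0.141, adjusted p = 0.0538), so its brightest probe set passed in neither. Of its 3 other probe sets, all were called higher in CL + AX (by 0.80, 0.82 and 1.33) and 2 in CL + VE (by 0.77 and 0.90). Tfpi was called under 7 of 11 alternatives in CL + AX and 8 of 11 in CL + VE, with values of 0.36 to 1.14 and 0.42 to 0.78. F3 gave 0.69 (adjusted p = 0.125) and 0.37 (adjusted p = 0.486). The difference between these values and those of CL against NC is the comparison with CL given above, where Tfpi gave -0.23 and -0.21 and was not called.

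Vwf passed against NC in CL + VE only, where it had 5.16, 6.48, 5.68, 6.99 and 5.51, so that the mice of the group spread from 5.16 to 6.99. Its log2 fold change was 1.08 (SE 0.348, adjusted p = 0.0413 in limma), beside 0.50 (adjusted p = 0.388) in CL + AX. The difference between both supplements was not called (-0.59, SE 0.348, adjusted p = 0.663). Its call rested on single mice: leaving out NC replicate 1, 2 or 3 gave 1.13, 0.77 and 1.13 (adjusted p = 0.0571, 0.128 and 0.0563 in limma), and leaving out CL + VE replicate 2 or 4 gave 0.96 and 0.83 (adjusted p = 0.104 and 0.132 in limma). Serpina10 was lower in CL + VE than in NC, with a difference of -0.32 (SE 0.0931, adjusted p = 0.0268), where its 5 mice lay between 11.15 and 11.19. The call was lost without NC replicate 2 (-0.25, adjusted p = 0.0856), NC replicate 3 (-0.25, adjusted p = 0.0876) or CL + VE replicate 1 (-0.31, adjusted p = 0.0513) in limma. In CL + AX it gave -0.20 (adjusted p = 0.158), and 0.04 without scaling.

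Other genes of the pathway were read from lists around the members. Of 9 genes of the vitamin K cycle and of factor processing, 0 were higher and 2 lower in CL against NC, beside 12% and 11.3% of all genes. Furin, a protease that trims propeptides from clotting factors, fell by 0.63 (SE 0.097, adjusted p = 7.47e-05). All CL mice were below all NC mice, a pattern in 7.85% of all genes. Lman1, the cargo receptor for factors V and VIII, fell by 0.34 (SE 0.08, adjusted p = 0.00422), with 3 of its 5 probe sets below 0. Both stayed below 0 under all 5 scalings but were not called without scaling (-0.26 and -0.08). Vkorc1l1 (0.17) and Ggcx, the carboxylase (0.20), were not called. Furin gave 0.30 (SE 0.097, adjusted p = 0.477) in CL + AX against CL and 0.27 (SE 0.097, adjusted p = 0.469) in CL + VE against CL. For Furin all CL + VE mice were above all CL mice, a pattern in 1.04% of all genes.

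Of 8 measured receptors of clotting proteases and clearance receptors, 3 were higher and 0 lower in CL against NC, beside 12% and 11.3% of all genes. Procr, the endothelial protein C receptor, rose by 2.74 (SE 0.376, adjusted p = 2.26e-05), with all CL mice above all NC mice (as in 8.07% of all genes) and a call under all 5 scalings. In CL + AX and CL + VE it was higher than NC by 2.80 and 2.50. Stab2, a scavenger receptor of sinusoidal endothelium, rose by 0.67 (adjusted p = 0.000227), also under all 5 scalings; it is among the endothelial markers above. F2r, a thrombin receptor, rose by 0.39 (adjusted p = 0.0195), but by 0.16 and without a call after median centring. F2rl2 gave -0.51 (adjusted p = 0.101). F2rl1 and Gp1ba were not analysed here.

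Of 13 measured further inhibitors and fibrinolysis regulators, 6 were higher and 0 lower in CL against NC, beside 12% and 11.3% of all genes. Fgl2, a membrane prothrombinase of macrophages and endothelium, rose by 1.92 (SE 0.203, adjusted p = 1.26e-06). Anxa2, a cell-surface partner of plasminogen and its tissue-type activator, rose by 1.82 (SE 0.329, adjusted p = 0.000414), and Plgrkt, a plasminogen receptor, by 1.32 (SE 0.18, adjusted p = 2.17e-05). For each of these the CL mice were all above the NC mice, as in 8.07% of all genes, and each was called under all 5 scalings. Tfpi2, a Kunitz-type inhibitor, rose by 0.35 (adjusted p = 0.0337) but lost the call under median centring (0.16). Serping1, the C1 inhibitor, was higher by 0.20 and Pzp by 0.15, and both turned below 0 with centring on the median (-0.27 and -0.36). The macrophage and endothelial marker values given above moved with these genes too, and their part was not tested. Serpine2 and Adamts13 were not analysed here.

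In the 3 comparisons among CL, CL + AX and CL + VE, 0 genes of these other lists were called by limma, and 0 to 3 of a list had an unadjusted p under 0.05. Of all genes, 2.7% to 6.59% in each direction had such a p in these comparisons. Lrp1, a clearance receptor, gave 0.33 (SE 0.0777, adjusted p = 0.201 in limma) in CL + VE against CL, where all CL + VE mice were above all CL mice (as in 1.04% of all genes). Serpina5, a protein C inhibitor, gave 2.31 (SE 0.65, adjusted p = 0.318) there, from very dim signals with a mean of 0.18 in CL.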

How the data were processed

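Liver RNA of each mouse was labelled with a 3′ IVT kit and put on its own Affymetrix whole-genome mouse array. The authors made 1 linear signal intensity per probe set with the MAS5 algorithm and the Subio platform, and the deposited intensity table was not scaled to a common level. Groups were taken from the diet in the labels. Here 64 control probe sets were removed, log2 signals were quantile normalized, and 45037 probe sets were fitted with limma 3.58.1 under R 4.3.3 in 1 model of 4 groups with an intensity trend. Benjamini-Hochberg adjusted p-values under 0.05 were called. Platform annotation gave 1 gene for 34945 probe sets, several for 932 and none for 9160, and only the first kind was used. The study's own tests were a Welch ANOVA and Welch t-tests. Only pairwise Welch t-tests were run here, on the quantile-normalized signals, as an alternative called the methods' t-test. The study's own selection of genes was therefore not repeated.

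The members and lists were chosen with earlier results of these data known. Named were all members called in a comparison or, where 0 were called, up to 4 with the smallest p, and, from each other list, up to 4 genes with the smallest p in CL against NC and up to 2 elsewhere. Serping1 and Pzp were added after their values were seen, to complete their list. No depth applies to arrays, and their number limits the precision. p-values measure the spread between these mice. Alternatives were no scaling, median centring, trimmed-mean scaling (2% cut at each end), a floor of 16, bright probe sets only, the mean of a gene's probe sets, genes in place of probe sets, no trend, the methods' t-test, the replicate block, and leaving out each mouse. Expression relative to the hepatocyte markers and the fibrinogen comparison within arrays were added after seeing the data. The fit was tested on simulated data. Promoter sequences are those of RefSeq on GRCm38.p6. Matched by symbol, 24 of 32 members had an entry.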

Additional observations from a re-analysis of the deposited data

Results flagged for a closer look

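Within-group spread was examined for 124 groups of 5 mice (31 members in 4 groups), and in 4 of them 1 mouse stood apart from the rest, where about 1 in 20 groups does so by chance. CL + VE replicate 5 was the lowest of its group for F13b (log2 signal 11.30, the others 11.48 to 11.54) and for F7 (9.68, the others 10.13 to 10.18). CL + VE replicate 4 was the highest for F11 (9.26, the others 8.18 to 8.37). NC replicate 2 was the lowest for Vwf (3.60, the others 5.05 to 5.59). The Vwf call in CL + VE against NC (1.08, adjusted p = 0.0413 in limma) was lost without that NC mouse (0.77, adjusted p = 0.128) and also without any 1 of NC replicates 1 and 3 and CL + VE replicates 2 and 4. The 3′ to 5′ log2 ratio of the Dap control probe set was 2.26 in CL + VE replicate 5, above the other mice of its group and below all NC mice (2.97 to 3.39), and its part in the values of F13b and F7 was not tested.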

How the results depend on the processing

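The direction of many bright members depended on how arrays were scaled to each other, and the cause was not tested. In CL against NC, F2, F9, Kng1, Serpinc1 and Serpina10 were below 0 under all 5 scalings. With arrays centred on the median, 18 members were called in CL against NC (11 after quantile normalization), 19 in CL + AX against NC (8) and 9 in CL + AX against CL + VE (0). Fga, Fgb, Fgg, F13b and F5 then gave -0.17, -0.18, -0.27, -0.0314 and -0.0434 in CL against NC and -0.31, -0.36, -0.54, -0.26 and -0.17 in CL + AX against NC, where Pros1 gave -0.0038. Fgb, Fgg and Hrg gave -0.017, -0.11 and -0.16 in CL + VE against NC. Kng1, Fga and Serpina10 gave -0.0839, -0.14 and -0.0512 in CL + AX against CL, and Kng1, F5 and Fgb gave -0.29, -0.19 and -0.35 in CL + AX against CL + VE. With trimmed-mean scaling, 16 members were called in CL + AX against NC; Fga, Fgb and Fgg gave -0.0252, -0.0361 and -0.13 in CL against NC and -0.0215, -0.0779 and -0.25 in CL + AX against NC, Fgg and Hrg gave -0.0226 and -0.0764 in CL + VE against NC, and Kng1 and Fgb gave -0.0895 and -0.14 in CL + AX against CL + VE. Without scaling, 16 members were called in CL + AX against NC and 6 in CL + VE against NC (10); F7 gave 0.0143 in CL against NC, F9 and F7 gave -0.0378 and -0.0304 in CL + VE against CL, Hrg gave 0.0928 in CL + AX against CL + VE and Serpina10 gave 0.0422 in CL + AX against NC. Relative to the hepatocyte markers, 17 members were called in CL + AX against NC, F7 gave 0.0113 in CL against NC, Hrg 0.0166 in CL + AX against CL + VE and Serpina10 0.0461 in CL + AX against NC. Members higher and lower in CL + AX against NC were 3 and 16 with median centring, beside 7.56% and 21.3% of all genes. They were 7 and 9 with trimmed-mean scaling (16.8% and 10.2%) and 16 and 0 without scaling (42.7% and 1.15%). Relative to the hepatocyte markers they were 17 and 0 (44.7% and 1.19%). Without scaling, CL + VE against NC had 6 higher and 0 lower, beside 12% and 1.57%. The median of all genes in CL against NC was 0.39 without scaling, -0.11 with median centring, 0.03 with trimmed-mean scaling and 0.39 relative to the hepatocyte markers, beside -0.04 after quantile normalization, and 96%, 38.2%, 59.8% and 95.7% of all genes called were higher, beside 51.6%.

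The methods' t-test called 6, 5 and 4 members in CL, CL + AX and CL + VE against NC, in place of 11, 8 and 10, and 0 in the other comparisons; over all probe sets it called 3444 in CL against NC, where limma called 7910. Leaving out 1 mouse at a time gave 11 calls in every fit of CL against NC (with F3 lost in 2 of them), 7 to 10 in CL + AX against NC, 7 to 11 in CL + VE against NC and 0 elsewhere. Correlations between same-numbered arrays were -0.2 to 0.312 over the 6 pairs of groups, with a mean of 0.042, beside -0.011 for other numbers. Between CL and CL + AX they were 0.042 to 0.312, with a mean of 0.15, beside -0.038 for other numbers. Whether the numbers pair mice of these groups was not tested. The replicate block gave 12, 8 and 10 calls against NC, with F11 gained in CL against NC (adjusted p = 0.0418 in limma). It gave 0 calls in CL + AX against CL. The other alternatives moved no count of calls by over 1.5 times. Dim probe sets, near background, limit what can be said of Plau, Plat, F13a1 and F3.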
